A study of Mus musculus with 16 samples.

Results

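The genes described here are 45 genes of endoplasmic reticulum (ER) protein quality control, given as a list of gene symbols and placed in 5 classes by function: 9 stress sensors and their direct partners, 13 chaperones and co-chaperones, 6 enzymes of oxidative folding, 11 genes of ER-associated degradation (ERAD) and 6 genes of the translocon. All 45 were among the 56941 genes in the deposited table, and 44 of them were among the 16306 genes with enough counts to be tested. Derl3, a derlin, was left out because it held only 1 to 9 counts per library. This list and the further gene lists below were made by function, with earlier results of these data known.

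RNA was sequenced in bulk from primary murine gingival fibroblasts (mGF), which were grown out of gingival explants of wild-type C57Bl6 mice aged 3 to 6 months and used between passages 2 and 8. Cultures received BSA carrier alone (BSA), 1 ng/mL recombinant mouse IL-1β (IL-1β), 200 μM palmitate bound to BSA (palmitate), or the same palmitate with 1 ng/mL IL-1β (palmitate + IL-1β). The exposure lasted 24 h. Each group held 4 libraries, numbered 1 to 4 for BSA, 5 to 8 for IL-1β, 9 to 12 for palmitate and 13 to 16 for palmitate + IL-1β. Palmitate is the main saturated fatty acid of blood and diet, and IL-1β is an inflammatory cytokine of diseased gingiva. The labels do not state whether libraries of a group came from separate cultures or mice, so the p-values below measure the spread between these libraries, which may be technical.

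Proteins that enter the secretory pathway pass through the Sec61 translocon into the ER, where chaperones such as BiP (Hspa5) hold them, oxidoreductases close their disulfide bonds, and ERAD pulls back to the cytosol those that fail to fold. When unfolded protein builds up, the transmembrane sensors IRE1α (Ern1), PERK (Eif2ak3) and ATF6 start the unfolded protein response, in which spliced XBP1 and cleaved ATF6 switch on chaperone and ERAD genes while PERK phosphorylates eIF2α and favours translation of ATF4. Fibroblasts secrete large amounts of collagen and therefore keep this machinery abundant, and saturated fatty acids are a classical trigger of the response because they change the lipid composition of the ER membrane. Sensor activation happens on proteins and, for Xbp1, by splicing, and gene counts show neither.

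Counts in genes ranged from 21234789 to 92752515 per library, with library 10 (palmitate) the deepest. Reads that fell in no gene made up 12.8% to 15.9% of each BSA library, 13.3% to 15.8% of each IL-1β library, 12.9% to 14.2% of each palmitate library and 13.1% to 13.7% of each palmitate + IL-1β library, and their part in the results was not tested. Levels are given as CPM, the read count of a gene relative to the TMM-scaled size of its library. The 10 fibroblast markers summed to 32857 to 34893 CPM with BSA, 34832 to 35835 with IL-1β, 30866 to 33420 with palmitate and 30351 to 33059 with both agents, and the part of these differences in the results was not tested, whereas the epithelial, immune and endothelial lists summed to at most 0.760, 3.28 and 2.29 CPM. In bulk RNA, fewer cells of a type and less RNA per cell cannot be told apart.

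The members differed far more in level than any of them changed. Per kilobase of canonical transcript, Calr, the lectin chaperone calreticulin, was the most abundant member in BSA libraries at 1006 ± 48.4 CPM per kb (SD, n = 4). It was followed by Hsp90b1 (GRP94) at 626 ± 46.4, the disulfide isomerases Pdia3 at 346 ± 14.8 and P4hb at 323 ± 7.15, and Hspa5 at 300.0 ± 16.4 CPM per kb, where the libraries of neighbours in the order from Pdia3 to Hspa5 overlapped. The stress sensors and their partners spread over the middle and lower part of the same scale. Mbtps1 was at 37.8 and Xbp1 at 33.5 CPM per kb, and the sensors Ern1 and Eif2ak3 lay lower. Ern1 was at 3.54 ± 0.299 and Eif2ak3 at 10.2 ± 0.387 CPM per kb, and only Ero1b, at 1.36 ± 0.209, and Derl3, at 0.0756 ± 0.0199, were lower than Ern1.

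**Figure D1:**
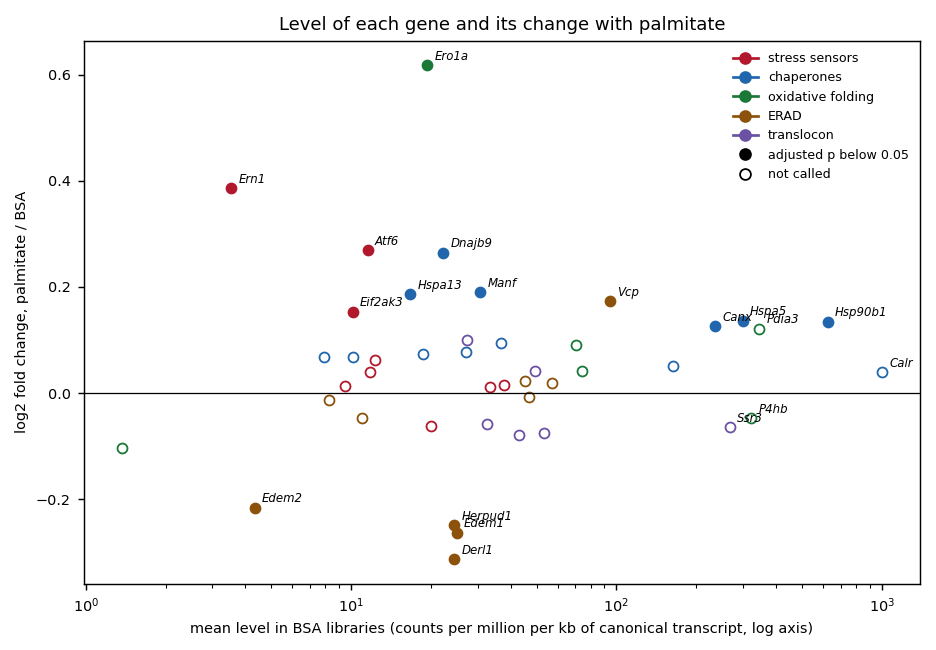
Each point is one of the 44 tested genes, with its mean level in the 4 BSA libraries (CPM per kb of canonical transcript, log axis) against its log2 fold change in palmitate over BSA, coloured by class and filled where the adjusted p was below 0.05. The largest rises, Ero1a at 0.62 and Ern1 at 0.39, and the largest fall, Derl1 at -0.31, belong to genes of low or middle level, and the abundant chaperones Hspa5 and Hsp90b1 lie at 0.14 and 0.13.

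With palmitate alone, the rises were led by the ER oxidase Ero1a (log2 fold change 0.62), the sensors Ern1 (0.39) and Atf6 (0.27) and the co-chaperone Dnajb9 (0.26), and the falls by the ERAD genes Derl1 (-0.31), Edem1 (-0.26) and Herpud1 (-0.25). In all, 15 of 44 members were called at an adjusted p below 0.05 (11 higher, 4 lower), a share of 34.1% where 37.3% of all tested genes were called, close to that background. The classes were not alike in direction. Of the chaperones, 6 of 13 rose and none fell, and 3 of 9 sensors and 1 of 6 oxidative folding genes rose, but in ERAD 4 of 10 tested genes fell and 1 rose, and none of the 6 translocon genes passed the test. Beside this, 19.8% of all genes were called higher and 17.5% lower.

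The changes were small. The median size of the log2 fold change was 0.0764 over the members and 0.190 over all tested genes, only Ero1a of the 15 called members moved by more than 1.5-fold, and none moved by more than 2-fold. All 4 palmitate libraries lay above all 4 BSA libraries for 10 members and below them for 5, where the libraries of 36% of all genes did not overlap. The split of the calls depended on scaling: under upper-quartile normalization 6 members were higher and 9 lower, as the share of higher calls over all genes moved from 53.1% to 37.1%.

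**Figure D2:**
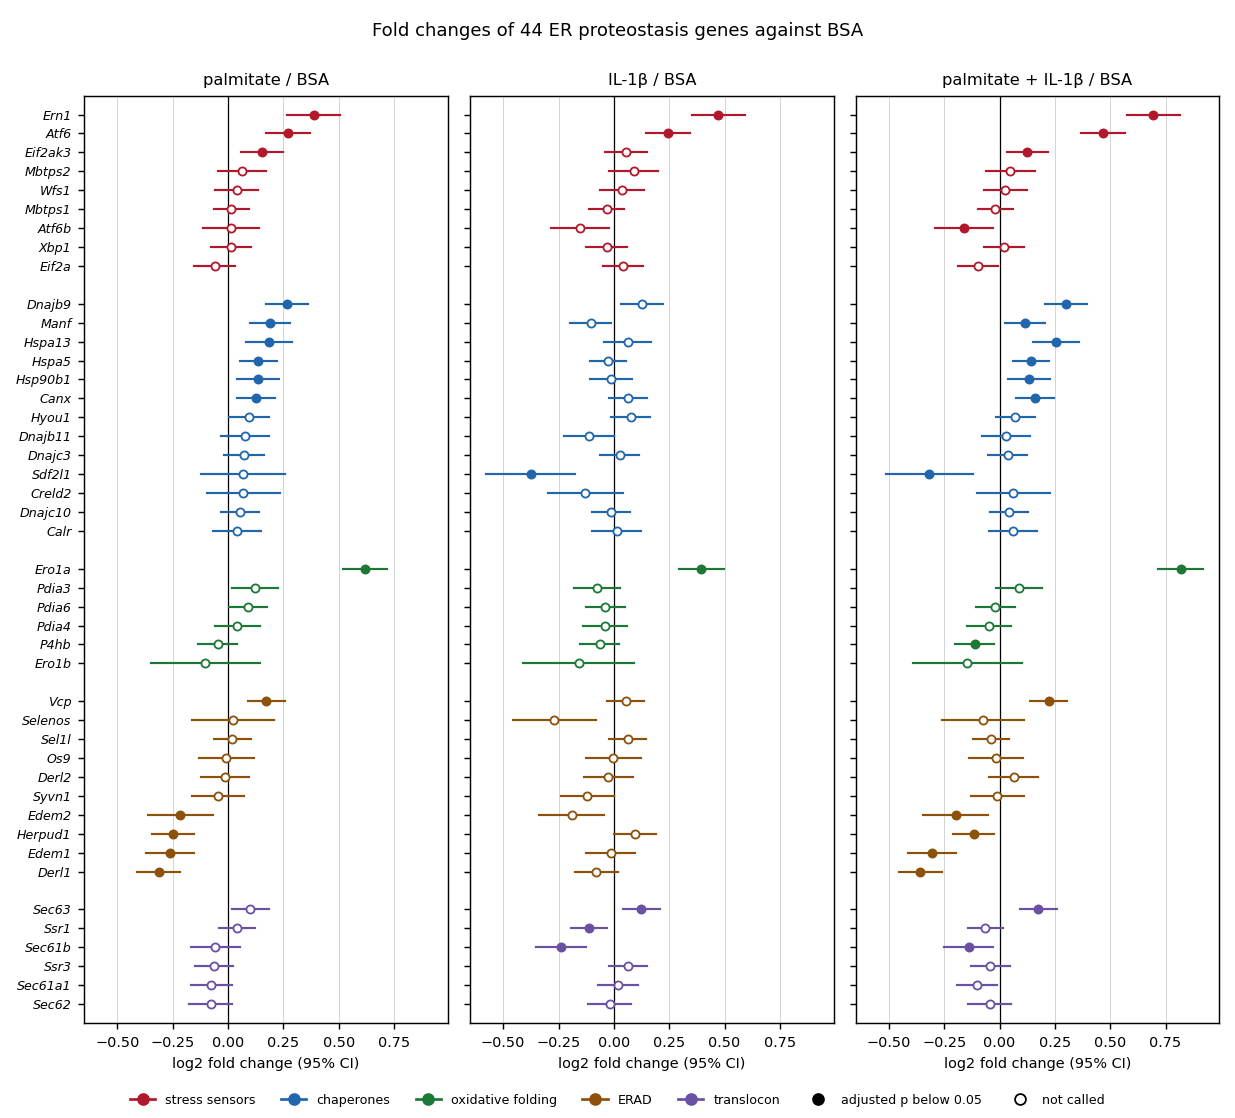
Log2 fold changes of the 44 tested genes with their 95% confidence intervals, for palmitate, IL-1β and palmitate + IL-1β over BSA (4 libraries per group), by class and in the order of the palmitate change. Filled points passed an adjusted p of 0.05. Ero1a, Ern1 and Atf6 are filled to the right of 0 in every panel, whereas Derl1, Edem1 and Herpud1 are filled to the left of 0 only in the panels with palmitate. The Herpud1 call with both agents was lost without library 1 (adjusted p = 0.0671), 4 (0.121), 13 (0.0637) or 16 (0.129).

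Among the sensors, Ern1, which encodes the kinase and RNase IRE1α, showed the largest change. It read 25.5, 26.1, 25.9 and 21.7 CPM in the BSA libraries and 31.9, 33.2, 33.8 and 30.4 CPM in the palmitate libraries. The groups did not overlap, and the log2 fold change was 0.39 ± 0.06 (SE; adjusted p = 2.65e-06). Library 4 was the lowest of the BSA group, and without any single library the call held. IL-1β alone gave 33.8, 33.8, 34.3 and 35.8 CPM, again above every BSA library, with a log2 fold change of 0.47 ± 0.06 (adjusted p = 4.55e-07). The 4 libraries with both agents read 40.0, 40.5, 43.0 and 37.1 CPM, above all other 12 libraries, and differed from BSA by 0.70 ± 0.06 (adjusted p = 1.2e-11), from IL-1β by 0.22 ± 0.06 (adjusted p = 0.00256) and from palmitate by 0.31 ± 0.06 on the log2 scale (adjusted p = 0.000311).

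Atf6, the sensor that is cut in the Golgi to free a transcription factor, behaved alike. It read 81.2, 86.2, 94.0 and 87.5 CPM in the BSA libraries against 109, 107, 99.5 and 106 CPM in those with palmitate, and its change was 0.27 ± 0.05 (adjusted p = 3.89e-05) with no overlap. In the IL-1β libraries Atf6 read 99.3, 99.4, 102 and 113 CPM, a rise of 0.24 ± 0.05 over BSA (adjusted p = 0.000515). With both agents it read 118, 121, 127 and 116 CPM, above every library of the other groups, 0.47 ± 0.05 over BSA (adjusted p = 1.66e-09) and 0.20 ± 0.05 over palmitate (adjusted p = 0.00683). Palmitate and IL-1β libraries overlapped for this gene and differed by 0.03 ± 0.05 (adjusted p = 0.749), an interval of -0.07 to 0.12. Its paralog Atf6b differed in pattern. It read 25.0, 24.5, 25.4 and 24.1 CPM with BSA, 25.99, 23.96, 22.7 and 27.7 with palmitate, 21.0, 21.1, 23.7 and 23.1 with IL-1β and 22.9, 23.5, 22.0 and 20.1 with both. Against BSA, the TMM fit of all libraries called it lower only with both agents, at -0.16 ± 0.06 (adjusted p = 0.0366). That call was lost without library 3 (adjusted p = 0.0809), 15 (0.0666) or 16 (0.144). With IL-1β alone every library lay below every BSA library, at a log2 fold change of -0.15 that was not called. Under upper-quartile normalization Atf6b was called lower with IL-1β (adjusted p = 0.0263). It was called higher with palmitate than with IL-1β at 0.17, which was lost with DESeq2 (adjusted p = 0.0747) and under upper-quartile normalization (0.081).

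Eif2ak3, which encodes PERK, rose less. The BSA libraries read 47.9, 45.01, 44.4 and 47.6 CPM and the palmitate libraries 50.9, 52.1, 49.7 and 52.9 CPM, which did not overlap, and the log2 fold change was 0.15 ± 0.05 (adjusted p = 0.00874). The call was lost under upper-quartile normalization, where the value was 0.08 (adjusted p = 0.154), and with no filter on low counts (adjusted p = 0.0611). In the IL-1β libraries it read 47.4, 50.8, 48.3 and 45.7 CPM, overlapping BSA, and with both agents 53.1, 49.6, 50.4 and 48.7 CPM, at 0.13 ± 0.05 over BSA (adjusted p = 0.0246). That call was lost in 8 of 22 alternatives, among them upper-quartile normalization, where the value was 0.05 (adjusted p = 0.419), no filter on low counts (0.263), and the omission of library 2 (0.118), 3 (0.0729) or 13 (0.158).

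The other sensor genes stayed close to their BSA levels. Xbp1, whose mRNA is the splicing target of IRE1α, read 64.6, 67.8, 64.7 and 66.9 CPM with BSA and 67.3, 68.3, 64.7 and 65.7 with palmitate, and the 95% interval of the log2 fold change ran from -0.08 to 0.10. With IL-1β it read 66.9, 64.4, 63.0 and 63.9 CPM and with both agents 69.7, 68.9, 61.3 and 68.0, so that all groups overlapped. Mbtps1 and Mbtps2, the Golgi proteases that cut ATF6, had log2 fold changes with palmitate of 0.01 (interval -0.07 to 0.09) and 0.06 (interval -0.05 to 0.17), and Wfs1, an ER membrane protein that restrains ATF6, one of 0.04 (interval -0.06 to 0.14). For Mbtps1 the BSA libraries read 177, 179, 186 and 183 CPM, the palmitate libraries 185, 179, 183 and 185, the IL-1β libraries 179, 180, 175 and 175 and the libraries with both 181, 176, 188 and 170. Mbtps2 read 29.9, 33.1, 34.4 and 29.8 CPM with BSA, 32.9, 32.5, 33.4 and 34.1 with palmitate, 32.9, 34.2, 33.9 and 34.3 with IL-1β and 34.6, 31.0, 34.3 and 31.3 with both. Wfs1 read 44.04, 47.0, 44.7 and 42.5 CPM with BSA, 46.1, 44.2, 46.7 and 46.5 with palmitate, 45.3, 46.1, 48.5 and 42.8 with IL-1β and 45.1, 43.2, 45.8 and 47.5 with both. None of these genes was called in any comparison in the TMM fit of all libraries. Under upper-quartile normalization Mbtps1 was called with both agents against BSA. For Mbtps2, 23.4% of the exonic bases also belong to exons of Yy2 on the same strand.

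Eif2a is easily taken for the PERK substrate, but in the mouse this symbol names the initiation factor eIF2A, and the eIF2α subunit is encoded by Eif2s1. Eif2a read 46.2, 47.2, 45.7 and 45.1 CPM with BSA and 44.4, 45.1, 43.3 and 43.6 CPM with palmitate. The palmitate libraries were all the lower ones, yet the log2 fold change of -0.06 ± 0.04 was not called (adjusted p = 0.303). Under upper-quartile normalization Eif2a was called lower with palmitate (adjusted p = 0.0169), and it was called there with both agents against BSA as well. It read 46.0, 46.7, 49.3 and 47.6 CPM with IL-1β and 43.7, 43.9, 40.3 and 44.2 CPM with both, where it was called lower against IL-1β at -0.14 ± 0.04 (adjusted p = 0.0144), a call that was lost without library 15.

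**Figure D3:**
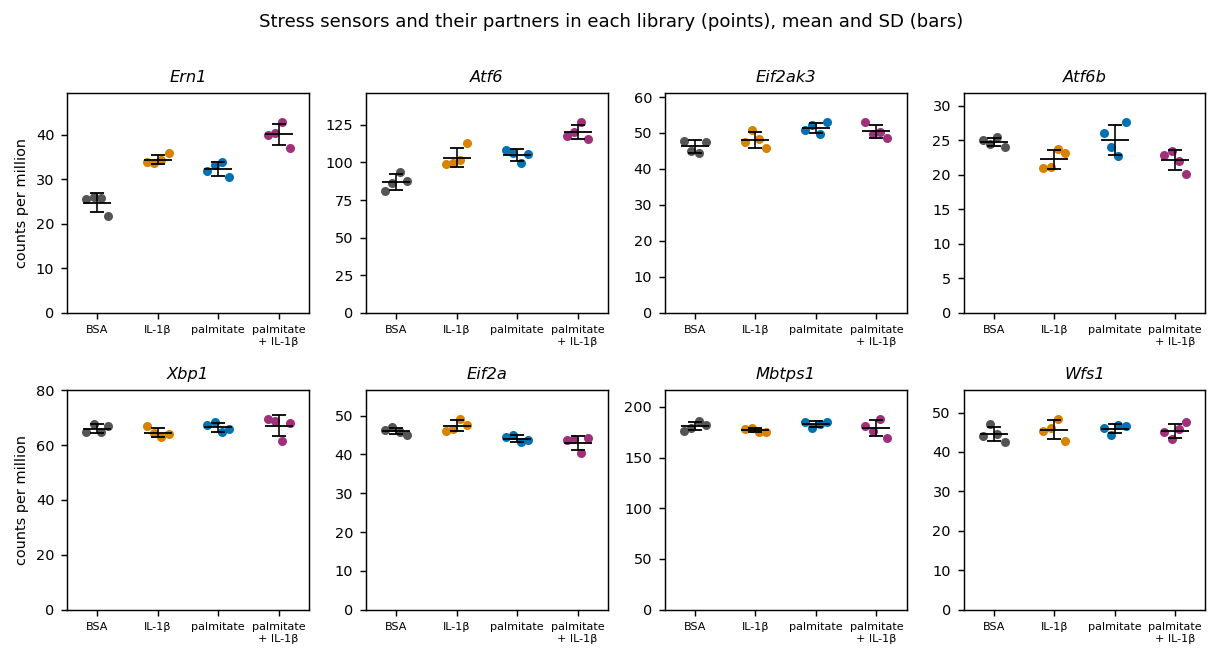
CPM of 8 sensor genes in each of the 16 libraries (points) with the mean and SD of each group (bars), on axes that start at 0. Ern1 and Atf6 step up with either agent and are highest with both. In the TMM fit of all libraries Xbp1, Mbtps1 and Wfs1 were called in no comparison, with group means of Xbp1 between 64.5 and 67.0 CPM.

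All 13 chaperone genes had a log2 fold change above 0 with palmitate, with a median of 0.09 against -0.003 over all tested genes, although under upper-quartile normalization only 9 of 13 stayed above 0 and 2 were called higher. The summed level of the class was 7668 ± 295 CPM with BSA and 8210 ± 142 CPM with palmitate (SD, n = 4), and no palmitate library fell below the highest BSA sum of 8005 CPM. Most of this sum came from the abundant Calr, Hsp90b1, Hspa5 and Canx, described below, so it says little about the other chaperones. Dnajb9, which encodes the BiP co-chaperone ERdj4, rose the most. It read 53.1, 55.2, 52.3 and 58.5 CPM with BSA and 67.2, 65.1, 66.4 and 64.7 CPM with palmitate, without overlap, a log2 fold change of 0.26 ± 0.05 (adjusted p = 2.26e-05) that held under all 22 alternatives. Manf, a small ER protein that binds BiP, read 69.1, 69.1, 65.6 and 72.4 CPM with BSA and 81.5, 79.8, 79.4 and 74.4 CPM with palmitate, also without overlap, at 0.19 ± 0.04 (adjusted p = 0.000983). Of the exonic bases of Manf over all its transcripts in GENCODE vM39, 32.6% also belong to exons of Rbm15b on the same strand. How reads there were counted was not established. Hspa13, an HSP70 relative of microsomes, read 63.0, 70.4, 78.8 and 71.4 CPM with BSA and 83.5, 80.4, 80.1 and 78.4 CPM with palmitate. Its groups overlapped through library 3, and the log2 fold change was 0.19 ± 0.05 (adjusted p = 0.00415), which became 0.12 (adjusted p = 0.0554) without library 1 and 0.12 (adjusted p = 0.0578) under upper-quartile normalization.

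The abundant chaperones rose by less, and each of their calls was lost when a single library was left out. Hspa5, the master chaperone BiP, read 1523, 1377, 1476 and 1567 CPM with BSA and 1677, 1623, 1624 and 1609 CPM with palmitate. The groups did not overlap and the log2 fold change was 0.14 (95% interval 0.05 to 0.22; adjusted p = 0.00741), but without library 2 the log2 fold change was 0.09 (adjusted p = 0.087) and under upper-quartile normalization 0.07 (adjusted p = 0.177). Hsp90b1 read 1838, 1636, 1695 and 1923 CPM with BSA and 1940, 2020, 1935 and 1891 CPM with palmitate, which overlapped, at 0.13 (95% interval 0.04 to 0.23; adjusted p = 0.0236). This call was lost without library 2 (adjusted p = 0.177), 3 (0.0717) or 10 (0.088). Canx, the membrane lectin calnexin, was called at a fold of 1.09 (adjusted p = 0.0168), a call lost without library 1 (adjusted p = 0.101) or 10 (0.0614), and its soluble counterpart Calr was not, at a fold of 1.03 (95% interval 0.953 to 1.11). The remaining chaperones, Hyou1, Dnajb11, Dnajc3, Sdf2l1, Creld2 and Dnajc10, had folds between 1.04 and 1.07 and were not called.

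Promoters of chaperone genes are known for short elements through which ATF6 and spliced XBP1 act, and these were searched in the windows from 250 bases before to 50 bases from the annotated start of each member's canonical transcript (GENCODE vM39, build GRCm39). Motifs were taken on either strand: the ER stress element (ERSE, CCAAT and CCACG with any 9 bases between them), ERSE-II (ATTGG and CCACG with any single base between them) and the UPR element (UPRE, TGACG followed by TGG), which in the Hyou1 window overlaps an ERSE-II. An exact ERSE was found in 10 of 45 members (22.2%), against 0.124% of all 21757 protein-coding promoters, an ERSE-II in 4 members (8.89%) against 0.0689%, and a UPRE in 2 members (4.44%) against 0.722%. In all, 15 members held a match (33.3%), against 0.901% of all promoters. The set of all promoters includes the members, and these elements are already known from promoters of such genes. The contrast therefore describes the list and is not a test. The stretches with the element and up to 20 flanking bases are shown for members with a palmitate call and an ERSE or ERSE-II, and for Calr and Pdia6 as members with the same element and no call, with the element in capitals and the gene's own strand written from left to right:
Hspa5 (chr2:34662017-34662075, plus strand): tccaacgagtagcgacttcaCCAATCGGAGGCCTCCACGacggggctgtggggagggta
Hsp90b1 (chr10:86541379-86541540, minus strand): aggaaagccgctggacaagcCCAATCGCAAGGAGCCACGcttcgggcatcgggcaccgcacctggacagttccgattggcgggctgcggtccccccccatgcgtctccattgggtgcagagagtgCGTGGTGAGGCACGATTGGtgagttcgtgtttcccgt
Canx (chr11:50216607-50216665, minus strand): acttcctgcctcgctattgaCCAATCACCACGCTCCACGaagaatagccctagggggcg
Manf (chr9:106769218-106769268, minus strand): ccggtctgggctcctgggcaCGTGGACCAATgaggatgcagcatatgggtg
Herpud1 (chr8:95112985-95113035, plus strand): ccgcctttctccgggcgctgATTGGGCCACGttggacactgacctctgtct
Calr (chr8:85573684-85573742, minus strand): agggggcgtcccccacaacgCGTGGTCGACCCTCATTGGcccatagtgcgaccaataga
Pdia6 (chr12:17316472-17316530, plus strand): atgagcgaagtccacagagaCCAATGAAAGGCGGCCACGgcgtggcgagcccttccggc

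Members with and without an element were both found among the calls. With palmitate, 6 of the 14 tested members with a match were called (5 higher and Herpud1 lower) with a median log2 fold change of 0.08, and 9 of the 30 without a match (6 higher, 3 lower) with a median of 0.02, where 37.3% of all tested genes were called. Hspa5 and Calr each hold a complete ERSE, in opposite orientations, and only Hspa5 was called. The members with the largest palmitate changes, Ero1a, Ern1, Atf6, Derl1 and Edem1, held none of these letters in their windows. With IL-1β, none of the 14 members with a match and 7 of the 30 without were called, where 15.1% of all tested genes were, and the difference between these members was not tested. Under upper-quartile normalization Manf, Syvn1 and Dnajb11, which hold a match, were called lower with IL-1β. A match to these letters describes the sequence and does not show that a factor binds there.

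In oxidative folding, Ero1a, the oxidase that recharges protein disulfide isomerase and passes electrons to oxygen, changed more than any other member. It read 80.5, 80.1, 92.4 and 90.6 CPM with BSA and 134, 132, 129 and 131 CPM with palmitate. The palmitate libraries all lay far above the BSA libraries, with a fold of 1.53 (95% interval 1.43 to 1.65; adjusted p = 5.77e-12). With IL-1β Ero1a read 104, 112, 116 and 119 CPM, between those groups and overlapping neither, 1.31-fold above BSA (adjusted p = 4.68e-07), and with both agents 156, 156, 144 and 149 CPM, 1.76-fold above BSA (95% interval 1.64 to 1.89; adjusted p = 4.36e-15). The 4 groups were therefore fully separated, and both agents together exceeded palmitate by 0.20 ± 0.05 on the log2 scale (adjusted p = 0.00561). In the TMM fit of all libraries no protein disulfide isomerase was called with palmitate against BSA. P4hb, the PDI that is the main partner of Ero1a, had a fold of 0.968 with palmitate (95% interval 0.910 to 1.03), and Pdia4 and Pdia6 folds of 1.03 and 1.06, none of them called. Under upper-quartile normalization P4hb was called lower (adjusted p = 0.0296). Pdia3, which folds glycoproteins with calnexin, read 1306, 1284, 1192 and 1305 CPM with BSA and 1360, 1430, 1377 and 1366 CPM with palmitate, with no overlap and a fold of 1.09 that missed the threshold (adjusted p = 0.0621). Other comparisons did call isomerases. P4hb was lower with both agents than with BSA, at -0.11 ± 0.04 (adjusted p = 0.0324), a call lost without library 4 (adjusted p = 0.0881), 13 (0.0636) or 16 (0.108). Pdia3 was higher with both agents than with IL-1β, at 0.16 ± 0.05 (adjusted p = 0.0131), a call lost in 5 alternatives, upper-quartile normalization (adjusted p = 0.0524) and the omission of library 7, 8 or 16 among them, with adjusted p up to 0.0904. Ero1b, the paralog of Ero1a, had 108 to 457 counts per library and a log2 fold change of -0.10 (95% interval -0.35 to 0.14), and 26.5% of its transcript matches transcripts of other genes.

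Under TMM normalization, ERAD was the class of members in which called falls outnumbered called rises with palmitate. Of 16 other ERAD genes, described below, 5 rose and 1 fell. Derl1, which encodes a channel-forming derlin, read 103, 103, 112 and 102 CPM with BSA and 87.3, 82.1, 83.1 and 85.8 CPM with palmitate, without overlap, and fell by 0.31 on the log2 scale (SE 0.05; adjusted p = 2.66e-06). Edem1, a mannosidase-like protein that marks glycoproteins for disposal, read 141, 144, 168 and 148 CPM with BSA and 133, 124, 115 and 127 CPM with palmitate, also without overlap, and fell by 0.26 (SE 0.05; adjusted p = 0.000184). Herpud1, the membrane scaffold of the HRD1 ubiquitin ligase and a well-known target of the unfolded protein response, read 79.3, 73.7, 72.8 and 79.7 CPM with BSA and 65.3, 65.1, 65.1 and 61.3 CPM with palmitate, and fell by 0.25 (SE 0.05; adjusted p = 4.61e-05) with the groups apart. Each of these 3 falls held under all 22 alternatives. Edem2 fell by 0.22 (SE 0.07; adjusted p = 0.0173), which was lost without library 3 (adjusted p = 0.0549), 9 (0.0532) or 10 (0.0669).

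The only ERAD gene to rise was Vcp, which encodes the ATPase p97 that pulls substrates out of the membrane. It read 364, 355, 368 and 381 CPM with BSA and 421, 431, 404 and 398 CPM with palmitate, with no overlap and a log2 fold change of 0.17 ± 0.04 (adjusted p = 0.00114). Of its transcript, 62.3% matches Vcp-rs, a near-identical copy, so its counts are less certain than those of the other members. The core of the HRD1 ligase was not called. Sel1l, its adaptor, had a fold of 1.01 (95% interval 0.958 to 1.07), Syvn1, the ligase itself, 0.969 (0.892 to 1.05), and Os9, the lectin that delivers substrates, 0.994 (0.913 to 1.08). Derl2 and Selenos, a p97-recruiting selenoprotein, had folds of 0.990 and 1.02, and Derl1 was therefore the only tested derlin to be called. The summed level of the class was 1315 ± 18.9 CPM with BSA and 1306 ± 23.6 CPM with palmitate (SD, n = 4), which overlapped.

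**Figure D4:**
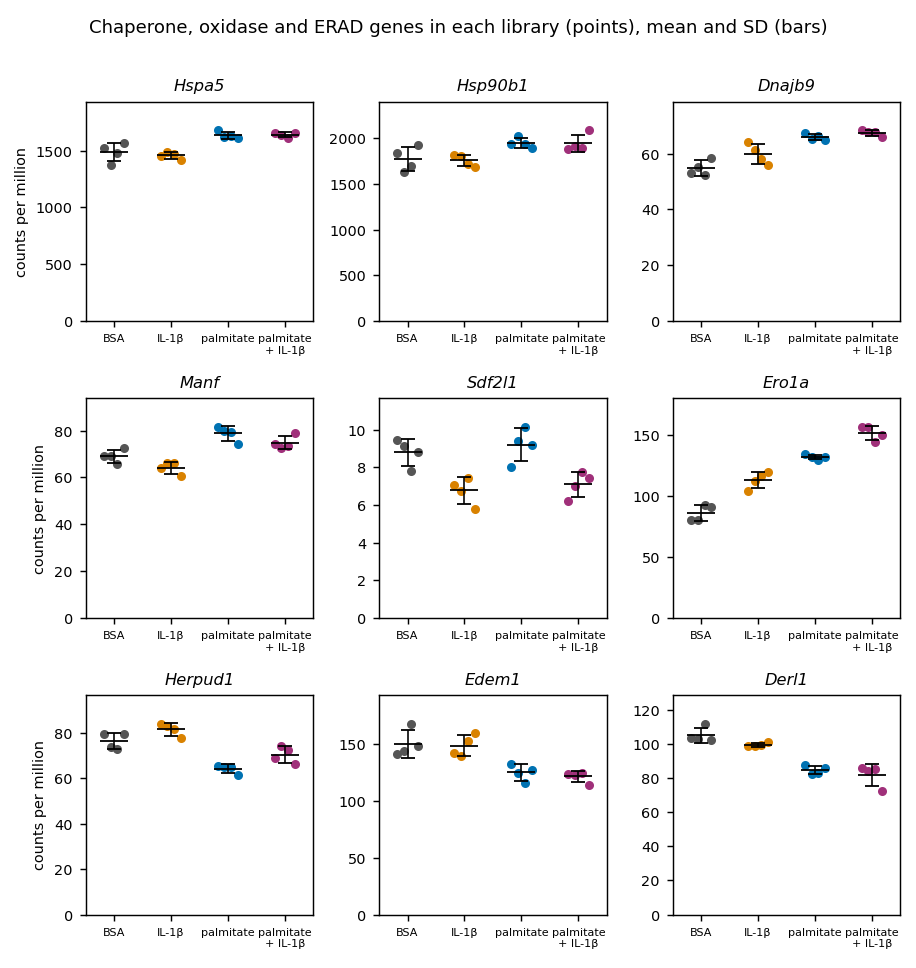
CPM of 9 chaperone, oxidase and ERAD genes in each of the 16 libraries (points) with the mean and SD of each group (bars), on axes that start at 0. The groups with palmitate are the higher ones for Hspa5, Hsp90b1, Dnajb9 and Manf and the lower ones for Herpud1, Edem1 and Derl1, Sdf2l1 is low in the groups with IL-1β, and Ero1a rises from 85.9 CPM with BSA to 151 CPM with both agents.

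Of the translocon, no gene was called with palmitate. Sec63, a J-domain partner of BiP at the channel, came closest at a log2 fold change of 0.10 (interval 0.02 to 0.19; adjusted p = 0.0548). Sec61a1, the channel itself, Sec62 and Ssr3 had values between -0.06 and -0.08, and under upper-quartile normalization these 3 were called lower. The class sum was 1840 ± 56.8 CPM with BSA and 1809 ± 31.8 CPM with palmitate (SD, n = 4), again with overlap.

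IL-1β alone called 7 of 44 members (4 higher, 3 lower), a share of 15.9% where 15.1% of all tested genes were called (10.1% higher, 4.97% lower). The IL-1β libraries all lay above the BSA libraries for 5 members and below them for 6, where 17.6% of all genes did not overlap. The rises were Ern1, Ero1a and Atf6, given above, and Sec63, which read 164, 174, 159 and 170 CPM with BSA and 186, 178, 180 and 183 CPM with IL-1β (0.12 ± 0.04; adjusted p = 0.0388). The Sec63 call was lost in 11 of 22 alternatives, without library 1, 3, 4, 5, 7, 8 or 13 among them, with adjusted p up to 0.2. The largest fall was that of Sdf2l1, a component of the BiP cycle and one of the strongest known targets of the unfolded protein response. It read 9.44, 9.14, 7.78 and 8.81 CPM with BSA and 7.08, 6.76, 7.44 and 5.80 CPM with IL-1β, with no overlap and a fold of 0.770 (95% interval 0.671 to 0.885; adjusted p = 0.00709). Sec61b, a small subunit of the channel, read 39.6, 38.0, 40.8 and 41.5 CPM with BSA and 33.9, 36.2, 33.8 and 31.6 CPM with IL-1β, also without overlap, at 0.848-fold (adjusted p = 0.00252), and 24.6% of its transcript matches Sec61bl and other copies. Ssr1, a subunit of the translocon-associated protein complex, was called lower at 0.925-fold (adjusted p = 0.0497), a call lost in 16 of 22 alternatives, 13 of them the omission of 1 library, with adjusted p up to 0.149. In the TMM fit of all libraries no ERAD gene was called, and Sdf2l1 was the only chaperone called. Hspa5 stood at 0.981-fold (95% interval 0.927 to 1.04) and Hsp90b1 at 0.991-fold (0.927 to 1.06). Selenos, an ERAD gene, was called lower in 6 of 22 alternatives, DESeq2 and upper-quartile normalization among them. Edem2 and Syvn1 of ERAD and the chaperones Manf and Dnajb11 were also called lower under upper-quartile normalization. Without library 4 or 8, Dnajb9 was called higher. Upper-quartile normalization gave 3 higher and 9 lower members, and it moved the share of higher calls over all genes from 67.1% to 43.5%.

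With both agents against BSA, 20 of 44 members were called (12 higher, 8 lower), a share of 45.5% where 47.3% of all tested genes were called (24.8% higher, 22.5% lower). All libraries with both agents lay above all BSA libraries for 11 members and below them for 5, where 41.5% of all genes did not overlap. The largest rises were Ero1a, Ern1 and Atf6, with the values above. The largest fall was Derl1, which read 85.8, 83.8, 85.3 and 72.2 CPM with both agents and fell by 0.36 (SE 0.05; adjusted p = 1.72e-07), followed by Sdf2l1 at 6.204, 6.98, 7.75 and 7.44 CPM, which fell by 0.32 (SE 0.10; adjusted p = 0.00674), and Edem1 at 124, 123, 125 and 113.9 CPM, which fell by 0.30 (SE 0.05; adjusted p = 1.99e-05). In each of these 3 genes every library with both agents lay below every BSA library. Ero1a and Ern1 were the only called members past 1.5-fold. Library 16 read lower than the rest of its group for Derl1 and Edem1, and without it 15 members were called (10 higher, 5 lower). The number lower was 5 also without library 3, 4 or 13. Upper-quartile normalization gave 7 higher and 16 lower, as the share of higher calls over all genes moved from 52.4% to 38.7%.

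The effect of palmitate was measured a further time in cells that also received IL-1β. All libraries shared 1 fit, with its scaling and estimate of the spread, so this was not a fully independent repeat. The groups compared were those with both agents and with IL-1β alone, which the comparison of palmitate with BSA did not contrast. There 16 of 44 members were called (11 higher, 5 lower), where 35% of all tested genes were called (18.9% higher, 16.1% lower), and upper-quartile normalization gave 8 higher and 7 lower. The libraries with both agents all lay above those with IL-1β for 11 members and below them for 6, where 31.3% of all genes did not overlap. Of the 16, 12 had also been called in the same direction without IL-1β (9 higher, 3 lower), which is 80% of the 15 called without IL-1β and 75% of the 16 called with it. Over all tested genes the shared calls made up 70.3% and 74.9% of the corresponding lists, close to the members' shares. Under upper-quartile normalization 12 members were again shared, but 6 were higher and 6 lower. Without that normalization the 9 higher were Ern1, Atf6, Hspa5, Hsp90b1, Dnajb9, Manf, Hspa13, Ero1a and Vcp, and the 3 lower were Herpud1, Edem1 and Derl1. The Hsp90b1 call with both agents against IL-1β was lost under upper-quartile normalization (adjusted p = 0.0596) and without library 7 (0.0797) or 16 (0.0729). In the presence of IL-1β, Hspa5 read 1655, 1640, 1610 and 1654 CPM with palmitate and 1453, 1490, 1474 and 1414 CPM without, at 1.12-fold with no overlap (adjusted p = 0.00118). Herpud1 read 68.9, 74.2, 72.3 and 66.3 CPM with both agents and 83.97, 83.1, 81.7 and 77.6 CPM with IL-1β alone, and fell by 0.21 (SE 0.05; adjusted p = 0.000408), Edem1 fell by 0.29 (SE 0.05; adjusted p = 6.61e-05) and Derl1 by 0.28 (SE 0.05; adjusted p = 2.02e-05). The largest rises were Ero1a at 0.42 ± 0.05 (adjusted p = 2.31e-08), Ern1 and Atf6 at 0.22 each, and Manf at 0.22 ± 0.05 (adjusted p = 0.000233). Manf read 64.0, 66.1, 66.1 and 60.6 CPM with IL-1β and 74.2, 72.7, 73.4 and 79.1 CPM with both, without overlap. Without library 16, and also without library 7, 12 members were called in this comparison.

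IL-1β added to palmitate called 4 of 44 members (3 higher, 1 lower), a share of 9.09% where 9.81% of all tested genes were called (5.71% higher, 4.1% lower). Ern1, Atf6 and Ero1a were higher with both agents than with palmitate, by 0.31, 0.20 and 0.20 on the log2 scale, and Sdf2l1, which read 8.02, 9.41, 10.1 and 9.20 CPM with palmitate, was lower, at 0.766-fold (95% interval 0.670 to 0.875; adjusted p = 0.00631). The libraries did not overlap for 8 members in all, where 16.7% of all genes did not, and these 4 were among them, and each call held under all 22 alternatives.

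A direct comparison of the agents called 18 of 44 members (14 higher with palmitate than with IL-1β, 4 lower), a share of 40.9% where 31.6% of all tested genes were called (16.5% higher, 15.2% lower). The libraries did not overlap for 18 members (13 above, 5 below), where 31.1% of all genes did not. Sdf2l1 was 1.36-fold higher with palmitate (95% interval 1.19 to 1.56; adjusted p = 0.000548) and Manf 1.23-fold (adjusted p = 4.46e-06), both without overlap. Selenos was 1.22-fold higher (adjusted p = 0.0185), at 52.1, 54.2, 55.5 and 57.8 CPM with palmitate and 52.4, 44.01, 44.8 and 38.1 CPM with IL-1β, where library 5 overlapped the palmitate group, and the call was lost without library 7 (adjusted p = 0.0522). Herpud1 was 0.787-fold (adjusted p = 4.01e-07), Edem1 0.842-fold (adjusted p = 0.000519) and Derl1 0.851-fold (adjusted p = 0.000273) with palmitate relative to IL-1β, again without overlap. All 13 chaperones had a value above 0 in this comparison, or 12 of 13 under upper-quartile normalization, and Ern1 and Atf6, at -0.09 ± 0.06 and 0.03 ± 0.05, were not called. Without library 7, 9 members rather than 14 were called higher.

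The interaction, which asks whether the palmitate effect differed with and without IL-1β, called none of the 44 members by edgeR's quasi-likelihood test and none by DESeq2, where 1.99% of all tested genes were called (0.159% positive, 1.83% negative). At an unadjusted p below 0.05 there were 2 of 44 members (4.55%) and 10.2% of all tested genes. The most negative value was that of Ero1a at -0.19 (95% interval -0.34 to -0.05; adjusted p = 0.213), and Ern1 stood at -0.16 (interval -0.33 to 0.00; adjusted p = 0.505). A missed threshold does not show that effects were equal, and for Ern1 the interval reaches from a fold of 0.795 to 1.00.

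The genes around PERK and eIF2, a list of 13 taken by function, held calls in both directions. With palmitate 5 of the 13 rose and 1 fell, where 37.3% of all tested genes were called (19.8% higher, 17.5% lower). Eif2s1, which encodes eIF2α, read 145, 127, 154 and 143 CPM with BSA and 186, 193, 177 and 186 CPM with palmitate, without overlap, at 1.30-fold (95% interval 1.22 to 1.40; adjusted p = 1.84e-07). Eif2ak2, the eIF2α kinase PKR, which is also induced by interferon, rose 1.78-fold (adjusted p = 2.21e-07), and Ppp1r15b, which encodes the constitutive eIF2α phosphatase subunit CReP, by 0.26 on the log2 scale (adjusted p = 2.23e-05). Atf4 itself read 294, 300, 290 and 304 CPM with BSA and 294, 304, 305 and 302 CPM with palmitate, which overlapped, and its change was 0.02 ± 0.04 on the log2 scale (adjusted p = 0.758), and against BSA was called only with both agents, where it read 313, 315, 345 and 345 CPM (0.15 ± 0.04 over BSA; adjusted p = 0.00605).

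Ddit3, which encodes the pro-apoptotic factor CHOP, read 65.8, 65.5, 54.0 and 57.4 CPM with BSA, 54.7, 56.2, 62.6 and 52.6 CPM with palmitate, 57.2, 61.3, 59.2 and 50.3 CPM with IL-1β and 61.4, 55.6, 61.7 and 67.6 CPM with both. All groups overlapped, and its log2 fold changes against BSA were -0.10, -0.09 and 0.02, none of them called. Chac1, a glutathione-degrading enzyme that ATF4 and CHOP induce, fell by 0.44 with palmitate (SE 0.05; adjusted p = 5.97e-08), rose by 0.28 with IL-1β (adjusted p = 0.000232) and with both agents lay at 0.03 ± 0.05 against BSA (adjusted p = 0.634). Ppp1r15a, the inducible phosphatase subunit GADD34, rose by 0.65 with IL-1β (adjusted p = 4.54e-11) and by 0.94 with both (adjusted p = 6.17e-16), and by 0.14 with palmitate (adjusted p = 0.0317), where its libraries overlapped BSA.

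**Figure D5:**
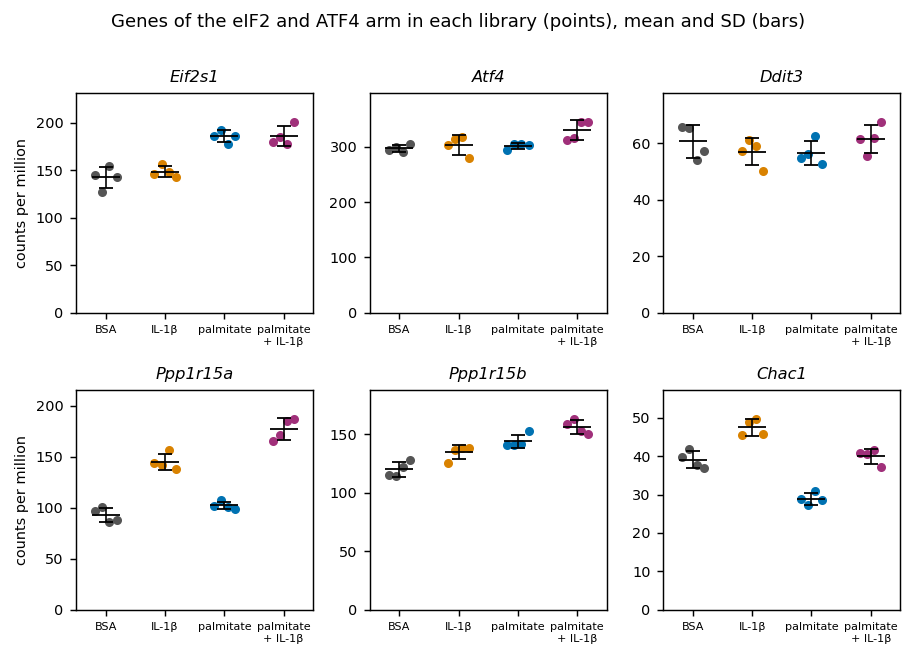
CPM of 6 genes of the eIF2 and ATF4 arm in each of the 16 libraries (points) with the mean and SD of each group (bars), on axes that start at 0. Eif2s1 is raised in the groups with palmitate, Ppp1r15a in the groups with IL-1β, Chac1 is lowest with palmitate alone, and Atf4 and Ddit3 stay within 279 to 345 and 50.3 to 67.6 CPM.

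Further ER genes were followed in 4 lists taken by function, beside the 37.3% of all tested genes called with palmitate. Of 24 other folding and glycosylation genes, 4 rose and 3 fell with a median of -0.04. The rises were led by genes of glycan trimming and glycoprotein checking, Mogs (glucosidase I, log2 fold change 0.28), Prkcsh (the beta subunit of glucosidase II, 0.20) and Uggt1 (the folding sensor of the calnexin cycle, 0.19), and the falls by Tmx1 (-0.17), Erp29 (-0.15) and Ddost (-0.13), a thioredoxin-like oxidoreductase, an ER protein and a subunit of the oligosaccharyltransferase. Of 16 other ERAD genes, 5 rose and 1 fell. The rises were led by Ubxn4 (0.22), Ube2g2 (0.19) and Nploc4 (0.19), of which Ubxn4 and Nploc4 encode partners of p97, and the fall was that of Tmem129 (-0.20). Of 14 other translocon and transport genes, only Srprb rose (0.18) and Ssr4 fell (-0.20). Of the 5 tested ER-bound or ER-linked transcription factors, Nfe2l1, which drives proteasome genes, rose 1.37-fold (adjusted p = 1.7e-11), Crebrf rose 1.12-fold and Creb3l2 fell to 0.860-fold.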

How the data were processed

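Per the paper's methods and the labels' processing notes, the authors trimmed reads with Trimmomatic 0.39, aligned them with STAR 2.7.10a to GRCm39 and counted them per gene by strand with HTSeq 2.0.9, and deposited raw counts for 16 libraries. Reads in no gene, in several genes or at several places were in 5 summary rows (18.3% to 21.4% of a library) and were left out. Library chemistry differs between sources: a stranded kit for total RNA in the labels, oligo(dT) priming in the paper.

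All 16306 genes kept by filterByExpr (minimum count 10) were fitted in 1 model with a mean per group with edgeR 4.0.16 (R 4.3.3), TMM normalization, glmQLFit (robust) and glmQLFTest, and p-values were Benjamini-Hochberg adjusted over all of them. CPM are on TMM-scaled library sizes. Alternatives were DESeq2 1.42.0, upper-quartile normalization, other filters, omission of mitochondrial and ribosomal RNA genes, the compared groups alone, and omission of each library. The fit was also run on simulated counts with the same spread for every gene and a small set of changed genes. That setting is simpler than these data, so it does not bear on single calls here.

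The members and lists were chosen with earlier results of these data known. Any member could be named. Values per library are given for all sensors, Hspa5, Hsp90b1 and, in each other class and comparison, up to 3 largest called rises and falls, and a few further genes beside them were chosen after their values were seen.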

Additional observations from a re-analysis of the deposited data

Results flagged for a closer look

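In each group of 4 libraries the highest and lowest values of each member were checked for standing apart from the other 3. Of 179 such groups 10 were marked, where chance alone marks about 1 in 20 groups. With BSA, Ern1 was low in library 4 (21.7 CPM, the others 25.5 to 26.1), Dnajc3 high in library 4 (101 CPM, the others 94.3 to 95.3) and Derl1 high in library 3 (112 CPM, the others 102 to 103). With IL-1β, Atf6 was high in library 8 (113 CPM, the others 99.3 to 102). With palmitate, Herpud1 was low in library 12 (61.3 CPM, the others 65.1 to 65.3). With both agents, Eif2a was low in library 15 (40.3 CPM, the others 43.7 to 44.2), and library 16 held the other 4: Hsp90b1 was high (2085 CPM, the others 1881 to 1916), and Edem1 (113.9 CPM, the others 123 to 125), Sel1l (343 CPM, the others 356 to 358) and Derl1 (72.2 CPM, the others 83.8 to 85.8) were low.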

How the results depend on the processing

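No call of a member changed its direction under any of the alternatives. DESeq2 kept all 15 members called with palmitate against BSA and added Sec63. Upper-quartile normalization gave 6 higher and 9 lower members with palmitate, 12 changed with 9 lower with IL-1β, 7 higher and 16 lower with both agents, each against BSA, and 2 lower with both agents against palmitate. In that last comparison DESeq2 also gave 2 lower, and the fit of the compared groups alone 3. A minimum of 10 counts in every library gave 5 lower members with IL-1β against BSA. The cause of these shifts was not tested. Leaving out each library in turn gave 12 to 17 changed members with palmitate against BSA (9 to 13 higher, 3 to 5 lower), 5 to 7 with IL-1β against BSA, 14 to 21 with both against BSA (8 to 12 higher, 5 to 10 lower), 12 to 20 with both against IL-1β, 4 to 6 with both against palmitate (1 to 2 lower), 13 to 20 with palmitate against IL-1β (9 to 16 higher) and 0 for the interaction. The 5 lower with both against BSA came without library 3, 4, 13 or 16, and the 2 lower with both against palmitate without library 11 or 16. No paired analysis was possible because library numbers 1 to 16 are not shared between groups. Depth limited Derl3, with at most 9 counts, and Ero1b.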

Other observations

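Cytosolic and mitochondrial chaperones, were followed as a list of 11 genes. With palmitate against BSA 6 rose and 2 fell, where 37.3% of all tested genes were called. The median size of the log2 fold change was 0.28 over this list, 0.09 over the 13 ER chaperones and 0.190 over all tested genes, and the difference between the lists was not tested. Hspd1, the mitochondrial chaperonin HSP60, rose 1.38-fold (adjusted p = 4.68e-10), Hspe1, its lid, 1.31-fold (adjusted p = 0.00265) and Hsp90aa1, the inducible cytosolic HSP90, 1.25-fold (adjusted p = 1.7e-07). The stress-inducible HSP70 genes went the other way. Hspa1b read 32.6, 29.5, 32.8 and 33.1 CPM with BSA, 24.3, 24.2, 24.03 and 23.1 with IL-1β, 23.5, 21.1, 22.1 and 22.6 with palmitate and 14.8, 13.1, 13.5 and 13.8 with both, so that every library with both agents lay below all others. It fell by 0.53 with palmitate (adjusted p = 2.79e-09), and its neighbour Hspa1a, which is almost identical in sequence so that the split of reads between the pair is uncertain, fell by 0.45 (adjusted p = 0.000461).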
